A study of Mus musculus with 7 samples.

Results

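Integrins are cell-surface receptors made of 1 alpha and 1 beta chain, and T cells use them to hold on to other cells and to the matrix. The genes described here are 8 integrin chains of T cells (Itgal, Itgb2, Itga4, Itgb1, Itgb7, Itga6, Itgav and Itgb3), the integrin ligand gene Icam1 and Cd44, which encodes the hyaluronan receptor CD44. They were taken by gene symbol, and all 10 were found among the 19589 genes of the table. The samples are CD4+ splenocytes of the C57BL/6 strain, with 3 RNA libraries labelled RT (RT1 to RT3) and 4 labelled WT (wild type, WT1 to WT4). The series counts 3 mice of the Tet2-/- G17V RHOA genotype, here RT, and 4 wild-type mice, so the libraries were taken as 1 per mouse. TET2 oxidises 5-methylcytosine in DNA, and G17V RHOA is a form of a small GTPase known from angioimmunoblastic T cell lymphoma. The sources used here do not give how the RHOA form was driven, in which cells, or how old the mice were. The comparison asks which of these adhesion genes had other RNA levels in RT than in wild-type cells.

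As background, the chain pair of Itgal and Itgb2 forms LFA-1, which binds ICAM1 on partner cells and holds the contact between a T cell and an antigen-presenting cell. The alpha4 chain pairs with the beta1 chain to bind VCAM1 and fibronectin, or with the beta7 chain to bind MAdCAM1 in gut vessels. The alpha6 chain with beta1 binds laminin, and the alphav chain with beta3 binds vitronectin and osteopontin. CD44 rises when naive T cells become effector or memory cells. An integrin is held inactive until signals through the small GTPase RAP1, talin and kindlin open it, a step that RNA levels do not show.

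Depth split the libraries into a deep and a shallow set. The library totals behind the RPKM values, worked out from their steps, were 18566233 to 21800352 reads in RT1, WT1 and WT2, the deep set, and 105763 to 121659 reads in RT2, RT3, WT3 and WT4, the shallow set. Levels are therefore given in RPM, a gene's reads per 1000000 reads recovered in genes, which takes out the depth of a library. Some genes still differed in RPM between the sets within wild type. Itga6, for example, had 173 and 232 RPM in WT1 and WT2, and 75.7 and 73.6 RPM in WT3 and WT4. RPM is therefore best compared within a set, and the test on reads has a term for the set. Where genes are compared with each other, the deposited RPKM is used, since it is scaled to gene length. Tet2 had 1292, 1 and 0 reads in RT1 to RT3, against 1381, 1105, 4 and 4 in WT1 to WT4. A total over the gene does not show a deleted part, so Tet2 does not check the labels. The T cell markers Cd4, Cd3d, Cd3e, Cd3g, Lck, Thy1 and Cd28 were summed in each library. They held 3128, 7427 and 6570 RPM in RT1 to RT3, against 3753, 3857, 4153 and 3853 RPM in WT1 to WT4. RT1 thus lay below every wild-type library, and RT2 and RT3 above. The part of this shift in the levels of the 10 genes was not tested. The markers of other cells moved between libraries. The 6 monocyte and macrophage markers summed to 2235, 267 and 391 RPM in RT1 to RT3, against 734, 492, 1069 and 1039 RPM in WT1 to WT4. The 6 B cell markers summed to 154 to 346 RPM in RT and to 181 to 1434 RPM in wild type, with 1277 and 1434 RPM in WT3 and WT4. The 3 plasma cell markers held 123 to 294 RPM in RT and 30.4 to 1480.4 RPM in wild type. Dendritic cell markers held 0 to 31.6 RPM in RT and 34.9 to 170.3 RPM in wild type. Erythroid markers summed to 236, 401 and 169 RPM in RT1 to RT3, against 107, 286, 1750 and 1719 RPM in WT1 to WT4. Neutrophil markers held 75.2 RPM in RT1 and at most 10.3 RPM in RT2 and RT3, against 2.36 to 28.4 RPM in wild type. Markers of stroma and endothelium held 103 to 215 RPM in RT and 184 to 266 RPM in wild type. Nearly all of it was Pecam1, at 103 to 209 RPM in RT and 184 to 261 RPM in wild type. Col1a1, Col3a1, Pdgfrb and Cdh5 each had at most 3.58 RPM in any library and no read in a shallow one. CD8 T cell markers held 0 to 8.89 RPM in RT and 9.46 to 27.6 RPM in wild type, and NK cell markers 0 to 4.49 RPM in RT and 0 to 12.9 RPM in wild type. Platelet markers held 0 to 13.2 RPM in RT and 0 to 9.19 RPM in wild type. In such bulk RNA, fewer cells of a type and less RNA per cell cannot be told apart.

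Of the 10 genes, Itgav, Icam1 and Cd44 rose and Itga6 and Itgb7 fell in RT in the test on recovered reads. That test was a limma voom fit of genotype and library set, with p-values adjusted over all 5908 genes tested and a threshold of 0.05. Itgal, Itgb2, Itga4 and Itgb1 did not pass, and Itgb3 had too few reads in the shallow libraries to enter. The calls were thus 3 of 9 higher, where 9.43% of all genes were called higher, and 2 of 9 lower, where 8.23% of all genes were. Itgav met the filter, 10 reads over the shallow libraries together, only with its RT reads. Itga6, called lower, met the filter only with its wild-type reads. Itgb3, low in RT, did not meet it, so these counts are in part set by the filter. The median log2 fold change was 0.15 over the 9 genes and -0.03 over all genes tested. In the test on log2(RPKM + 1) with genotype as the only term, 0 of the 10 genes passed in limma, where 0.0416% of 9605 genes were called higher, 0.0104% lower and 0.0521% in either direction. In that test Itgav, at a log2 fold change of 1.53 ± 0.56, was higher at an unadjusted p under 0.05, and Itgb3 and Itga6, at -1.50 ± 0.54 and -1.12 ± 0.42, were lower (limma adjusted p = 0.463, 0.454 and 0.472), where 8.69% of all genes were past it in either direction. The 5 calls on recovered reads needed RT1, the single deep RT library. Without it, 0 of the 9 genes and 0 of the 5908 genes passed in limma voom, with 486 genes at an unadjusted p under 0.05. The deep set then holds no RT library, so the genotype difference in that fit comes from the shallow libraries only. Since no gene passed there, a call lost without RT1 does not set 1 gene apart from another, here or below. The deep libraries taken alone, with RT1 assumed to vary like the wild-type pair, gave 1 member higher (Itgav), where 2.17% of all genes were, and 1 lower (Itgb7), where 0.931% were. The shallow libraries alone gave 0 members higher, where 2.44% of all genes were, and 1 lower (Itga4), where 3.25% were. A looser filter of 10 reads over all 7 libraries admitted 12999 genes and all 10 members, and called 3 members higher, where 5.87% of genes were, and 3 lower, where 3.46% were (9.33% in either direction).

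**Figure D1:**
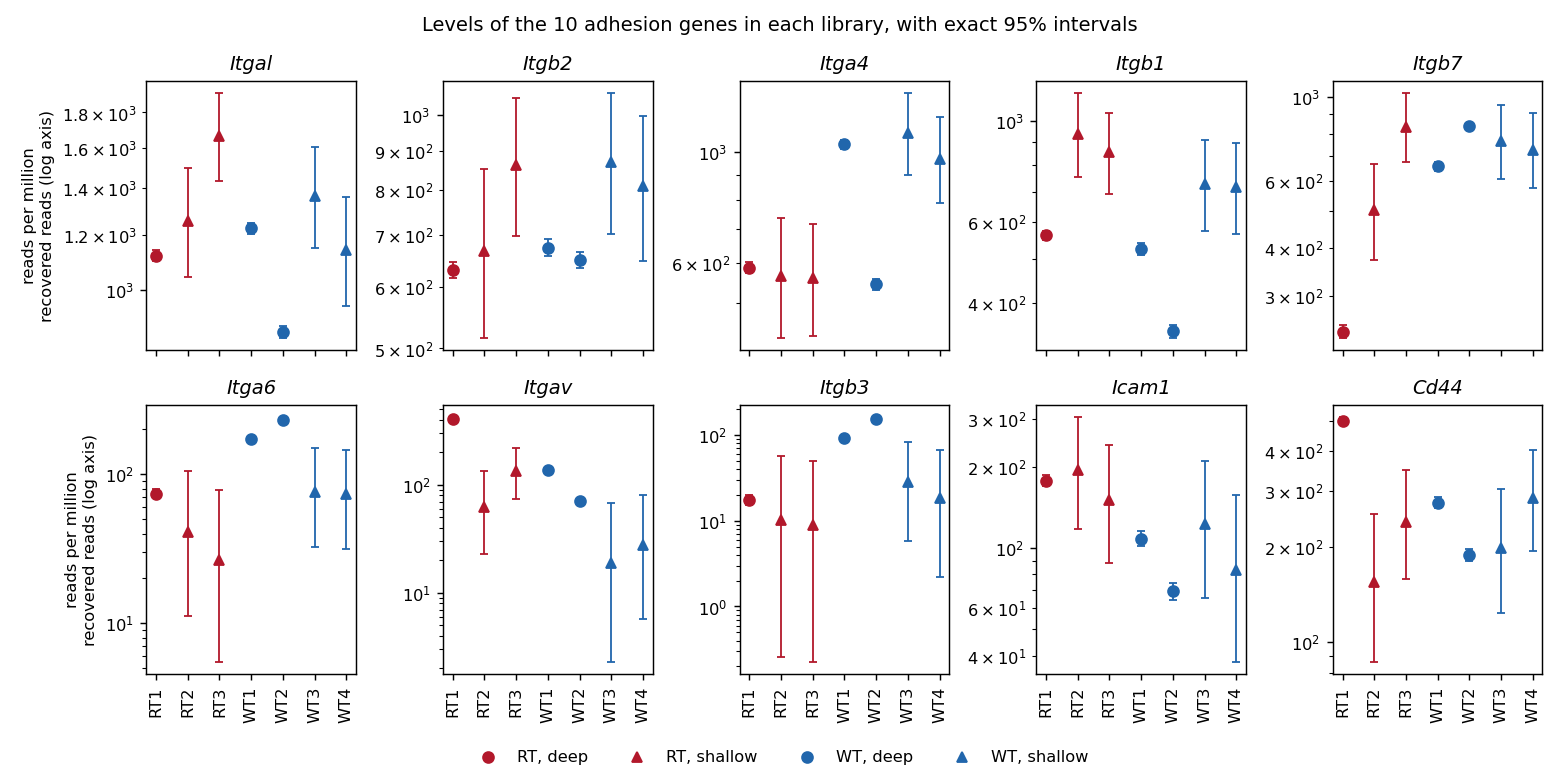
Levels of the 10 genes in RPM (log axes, which differ between panels) in RT libraries (red) and wild-type libraries (blue), with deep libraries as circles, shallow ones as triangles and exact 95% binomial intervals as bars. Icam1 lies higher in every RT library than in any wild-type one, Itgb3 lies lower in every RT library, and the intervals of the shallow libraries are wide.

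The LFA-1 chains were among the most abundant transcripts of the set, and neither passed the test. Itgb2 (chromosome 10, 77530252 to 77565708, mm10), the beta chain shared by leukocyte integrins, had 631, 669 and 862 RPM in RT1 to RT3, against 674, 651, 870.3 and 809 RPM in WT1 to WT4. The groups overlapped along most of their range. Its log2 fold change was -0.09, with a 95% interval of -0.35 to 0.17 (limma voom adjusted p = 0.62). Itgal (chromosome 7, 127296260 to 127335138), the alpha chain, had 1119, 1255 and 1663 RPM in RT1 to RT3, against 1225, 869.5, 1362 and 1140.2 RPM in WT1 to WT4. RT3 held the highest value and WT2 the lowest, and the other 5 libraries lay between them. The log2 fold change was 0.15, with a 95% interval of -0.23 to 0.54 (limma voom adjusted p = 0.565). A difference of 1 on the log2 scale, the size found for Icam1, lies outside both intervals. Per length, Itgb2 ranked first or second of the 10 genes in every library, at 108 to 261 RPKM in RT and 109 to 253 RPKM in wild type.

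Icam1 (chromosome 9, 21015985 to 21028817), which encodes the ligand of LFA-1, was the member whose RPM separated the groups on the higher side. It had 178, 195 and 151 RPM in RT1 to RT3, against 108, 69.3, 123 and 82.8 RPM in WT1 to WT4. Every RT library lay above every wild-type one, as was so for 5.59% of the 5908 genes tested, and every RT library lay below for 5.65%. The group means were 175 ± 22.3 RPM in RT (SD, n = 3) and 95.9 ± 24.3 RPM in wild type (SD, n = 4). Icam1 rose by a log2 fold change of 1.01 ± 0.23 (SE), or 2.02-fold (limma voom adjusted p = 0.0207). The shallow values rest on 19 and 17 reads in RT2 and RT3 and on 13 and 9 reads in WT3 and WT4. Taken alone, the deep libraries gave 1.05 ± 0.29 and the shallow ones 0.73 ± 0.43, and neither passed. On the deposited RPKM scale the groups overlapped, with 21.3 to 41.2 RPKM in RT and 8.41 to 25.1 RPKM in wild type. In the deep set RT1 was highest both in Icam1 and in the summed macrophage markers, at 2235 RPM, against 734 RPM in WT1 and 492 RPM in WT2. In the shallow set these markers were at 267 and 391 RPM in RT2 and RT3, against 1069 and 1039 RPM in WT3 and WT4. The B cell markers, from cells that can also express Icam1, were at 154 and 231 RPM in RT2 and RT3, against 1277 and 1434 RPM in WT3 and WT4. The part of these markers in the Icam1 result was not tested. Exons of Icam1 share 511 bases with Gm47079, an antisense gene, and the library kit, named in the labels without strand, is not stated to separate them.

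The promoters of 4 of the 5 members called in the reads test are shown because Icam1 is a textbook target of the transcription factor NF-kB, whose sites often hold the letters GGNNNTTCC. RefSeq promoter sequences (build GRCm38.p6, 250 bases before to 50 after a gene's start) were at hand for 6 of the 10 members, among them the 4 printed here. The strand is that of the gene, and capitals mark matches to GGNNNTTCC on either strand.
Icam1 (chr9:21015690-21015989, plus strand): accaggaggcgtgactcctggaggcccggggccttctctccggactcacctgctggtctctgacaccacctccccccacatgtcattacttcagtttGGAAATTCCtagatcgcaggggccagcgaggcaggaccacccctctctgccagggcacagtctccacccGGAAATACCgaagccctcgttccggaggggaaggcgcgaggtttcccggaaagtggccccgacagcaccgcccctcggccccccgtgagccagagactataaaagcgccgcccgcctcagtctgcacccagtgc
Itgav (chr2:83724147-83724446, plus strand): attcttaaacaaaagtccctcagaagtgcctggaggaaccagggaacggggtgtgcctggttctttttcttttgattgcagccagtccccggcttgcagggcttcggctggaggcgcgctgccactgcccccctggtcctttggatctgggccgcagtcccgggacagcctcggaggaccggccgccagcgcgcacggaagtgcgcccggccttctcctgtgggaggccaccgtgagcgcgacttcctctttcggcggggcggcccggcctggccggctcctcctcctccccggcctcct
Cd44 (chr2:102901616-102901915, minus strand): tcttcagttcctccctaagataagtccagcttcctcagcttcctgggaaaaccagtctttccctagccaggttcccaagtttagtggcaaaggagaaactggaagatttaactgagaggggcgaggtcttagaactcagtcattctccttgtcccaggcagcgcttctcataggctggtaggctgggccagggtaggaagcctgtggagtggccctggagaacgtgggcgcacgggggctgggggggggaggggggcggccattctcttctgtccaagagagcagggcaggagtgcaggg
Itgb7 (chr15:102231886-102232185, minus strand): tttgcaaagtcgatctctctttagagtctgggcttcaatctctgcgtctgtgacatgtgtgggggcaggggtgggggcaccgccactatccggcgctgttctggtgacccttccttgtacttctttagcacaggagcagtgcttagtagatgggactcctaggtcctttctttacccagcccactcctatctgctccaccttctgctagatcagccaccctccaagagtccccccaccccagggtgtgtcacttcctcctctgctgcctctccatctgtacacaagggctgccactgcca

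The Icam1 window held 2 matches to GGNNNTTCC, and the windows of Itgav, Cd44 and Itgb7 held 0. Of the other 2 member windows, Itgb1, a gene that did not pass, held 1 match and Itga4 held 0. Of 32851 RefSeq promoter windows of that length, 18.5% held at least 1. The first Icam1 match begins 153 bases before the start. The windows of Icam1, Itgav and Cd44 also held the letters GGGCGG, a motif of SP and KLF factors found in 35.7% of all windows, as did those of Itgb1 and Itga4, and the Itgb7 window did not. CCGGAA, the core of ETS sites, had 3 matches in Icam1, 1 in Itgb1 and 0 in the other 4 windows, against at least 1 match in 14.9% of all windows. TGTGGT, the core of RUNX sites, had 1 match in Itga4 and 0 in the other 5 windows, against 16.8% of all windows with at least 1. These are letter matches in 1 window per gene, and the data hold no measure of binding.

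Of the alpha4, beta1 and beta7 chains, only Itgb7 passed the test over all libraries. Itga4 (chromosome 2, 79255426 to 79333123) had 588, 566 and 560.1 RPM in RT1 to RT3, against 1034, 544, 1088 and 965 RPM in WT1 to WT4. The RT values lay close together, WT2 lay just below them, and the other wild-type libraries stood well above. The log2 fold change was -0.50, with a 95% interval of -1.12 to 0.13 (limma voom adjusted p = 0.248). In the shallow libraries alone Itga4 passed at -0.86 ± 0.25 (limma voom adjusted p = 0.0323), where 5.69% of all genes passed in either direction. Without WT2 it passed at -0.83. Exons of Itga4 share 1124 bases with Cerkl on the opposite strand, which held at most 20.6 RPM in any library.

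Itgb1 (chromosome 8, 128685654 to 128733200), the beta chain with the most partners, had 562, 936 and 854 RPM in RT1 to RT3, against 525, 347, 728 and 717 RPM in WT1 to WT4. Within each depth set the RT libraries lay above the wild-type ones. The log2 fold change was 0.37, with a 95% interval of -0.04 to 0.78 (limma voom adjusted p = 0.197), and it passed without WT1, at 0.53. Itgb7 (chromosome 15, 102215995 to 102231944) had 241, 504 and 836 RPM in RT1 to RT3, against 657, 837, 766 and 726 RPM in WT1 to WT4. RT1 and RT2 lay below all wild-type libraries, and RT3 was level with the highest of them. Itgb7 fell by 1.2 ± 0.28 (log2, SE) in the test on all libraries (limma voom adjusted p = 0.0234). The deep libraries alone gave -1.62 ± 0.23, a call, and the shallow ones gave -0.18 ± 0.26 and did not pass. The call was also lost without WT3, at -1.19. The difference between the sets was 1.44 ± 0.44 and did not pass (limma voom adjusted p = 0.304). A gene length of 2743 bases in deep libraries and of 2770 bases in shallow ones was needed to give whole reads for Itgb7.

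**Figure D2:**
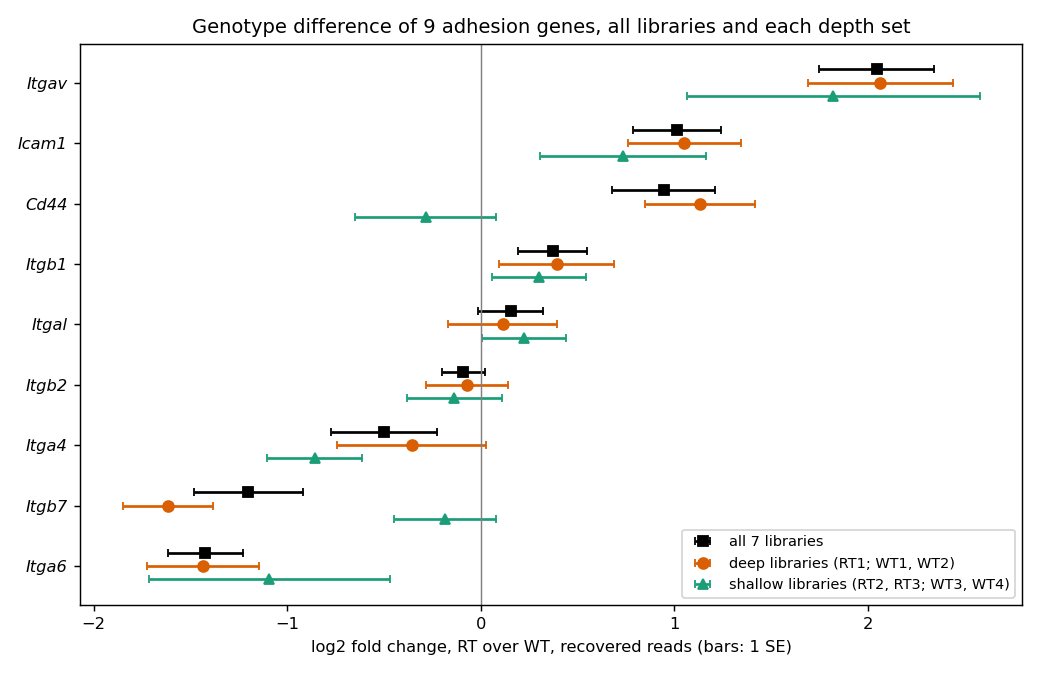
Log2 fold changes of RT over wild type from the recovered reads for the 9 genes tested, in all 7 libraries (squares), in the deep libraries alone (circles) and in the shallow libraries alone (triangles), with bars of 1 SE. Itgav, Icam1 and Itga6 kept their side of 0 in each set, Cd44 lay at 1.13 (deep) and -0.29 (shallow), and Itgb7 at -1.62 (deep) and -0.18 (shallow).

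Itga6 (chromosome 2, 71745616 to 71858416), whose product pairs with beta1 as a laminin receptor, was low in the RT libraries of each set. It had 74.0, 41.1 and 26.7 RPM in RT1 to RT3, against 173, 232, 75.7 and 73.6 RPM in WT1 to WT4. RT1 and WT4 were almost level, and otherwise the groups stood apart. Itga6 fell by 1.42 ± 0.19 (log2, SE), or 2.68-fold (limma voom adjusted p = 0.00303). It lay at -1.44 ± 0.29 in the deep libraries alone and at -1.09 ± 0.62 in the shallow ones, and neither passed. The shallow values rest on 4 and 3 reads in RT2 and RT3 and on 8 reads in each of WT3 and WT4. Itga6 thus entered the test through its wild-type reads, the group where it is high. The exact 95% intervals of RT2, 11.2 to 105 RPM, and of RT3, 5.50 to 77.9 RPM, both include the levels of WT3 and WT4. On the deposited RPKM scale the groups did not overlap, at 2.73 to 4.27 RPKM in RT and 7.29 to 13.6 RPKM in wild type. That scale runs higher in shallow libraries than RPM does, and on RPM RT1 lay just above WT4.

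The alphav and beta3 chains, partners in the vitronectin receptor, went opposite ways. Itgav (chromosome 2, 83724397 to 83806916) had 408, 61.7 and 133 RPM in RT1 to RT3, against 138, 70.9, 18.9 and 27.6 RPM in WT1 to WT4. RT1 stood far above the rest, and RT2 and RT3 stood above the shallow wild-type libraries. Itgav rose by a log2 fold change of 2.05 ± 0.30, or 4.13-fold (limma voom adjusted p = 0.00374). It was at 2.06 ± 0.37 in the deep libraries alone, where it passed (limma voom adjusted p = 0.0485, with 3.1% of all genes called), and at 1.82 ± 0.76 in the shallow ones, where it did not. The shallow values rest on 6 and 15 reads in RT2 and RT3 and on 2 and 3 reads in WT3 and WT4. Itgav thus entered the test through its RT reads, while Itgb3, low in RT, was left out by the same filter. The macrophage markers stood at 2235 RPM in RT1, the library with the most Itgav, and their part in the deep difference was not tested. In the shallow libraries these markers were at 267 and 391 RPM in RT2 and RT3, against 1069 and 1039 RPM in WT3 and WT4. Their part in the shallow Itgav values was not tested either. Exons of Itgav share 634 bases with Gm13684 on the opposite strand.

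Itgb3 (chromosome 11, 104608000 to 104670476) had 17.6, 10.3 and 8.89 RPM in RT1 to RT3, against 92.0, 153, 28.4 and 18.4 RPM in WT1 to WT4. Every RT library lay below every wild-type one, but RT2 and RT3 had 1 read each and WT3 and WT4 had 3 and 2. The deep libraries held most of the reads, with 200 reads in RT1 against 844 and 1620 reads in WT1 and WT2. With the filter lowered to 10 reads over all 7 libraries, Itgb3 fell by 2.67 ± 0.36 (log2, SE; limma voom adjusted p = 0.00691). Without RT1 it was at -0.95 ± 1.90 and did not pass. In the deep libraries alone it was at -2.76 ± 0.67 and did not pass either. The platelet markers Pf4, Ppbp, Gp1ba and Gp9, from cells rich in beta3, had at most 13.2 RPM in any library, and that library was RT1. In a shallow library a gene with 0 reads may have up to 26.7 to 30.9 RPM. The part of platelets in the Itgb3 levels was not tested. The ratio of Itgav to Itgb3, each as RPKM + 1, was 8.15, 2.41 and 5.21 in RT1 to RT3, against 0.844, 0.306, 0.486 and 0.870 in WT1 to WT4. This ratio was shown after the opposite values of the pair were seen and was not tested. In the shallow libraries it rests on 6 and 15 Itgav reads and 1 Itgb3 read each in RT2 and RT3, against 2 and 3 Itgav reads and 3 and 2 Itgb3 reads in WT3 and WT4, so that its side of 1 there is within counting error in wild type.

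Cd44 (chromosome 2, 102811141 to 102901665) had 499, 154 and 240.1 RPM in RT1 to RT3, against 276, 188, 199 and 285 RPM in WT1 to WT4. RT1 was the highest library and RT2 the lowest, so the RT values enclosed all the wild-type ones. Cd44 rose by a log2 fold change of 0.94 ± 0.27 over all libraries (limma voom adjusted p = 0.0443). The deep libraries alone gave 1.13 ± 0.28 and the shallow ones -0.29 ± 0.37, and neither passed. The difference between the sets was -1.42 ± 0.72 and did not pass (limma voom adjusted p = 0.652), and none of the 9 genes passed in that test, against 0.559% of all genes. The call was lost when RT1, RT3, WT1 or WT3 was left out, with values of -0.28, 0.98, 0.999 and 0.98. Cd44 was highest in RT1, the library with the highest sum of macrophage markers, and the part of those markers was not tested.

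**Figure D3:**
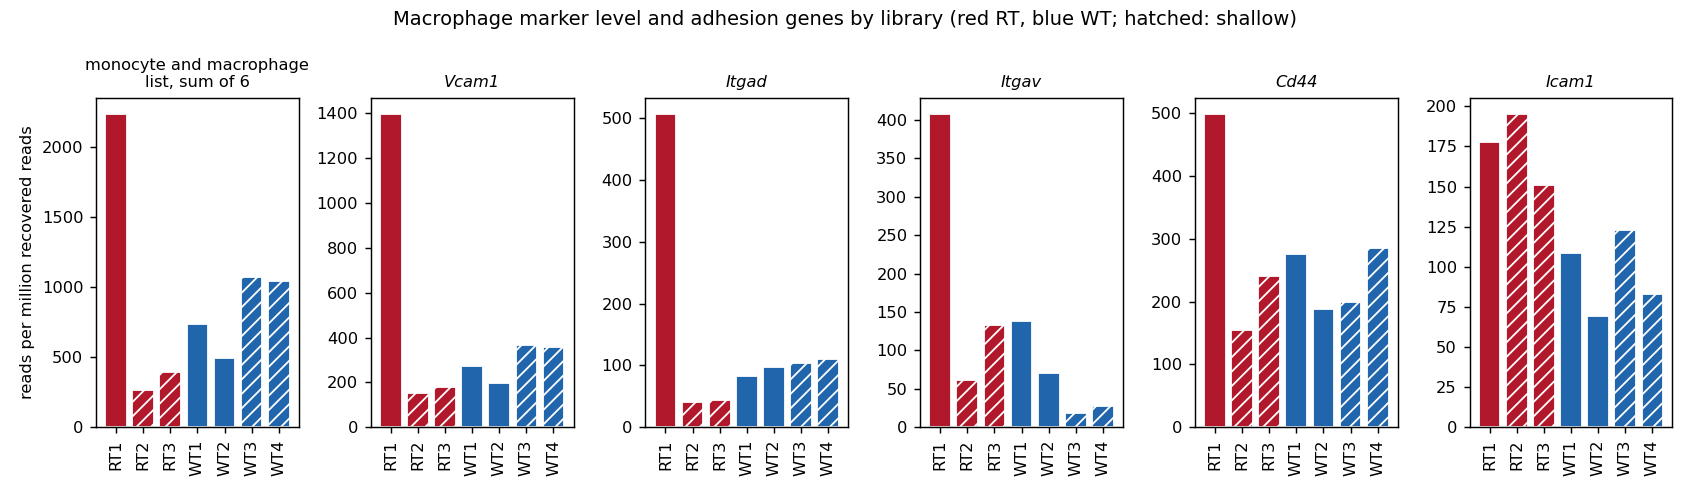
Levels in RPM (linear axes from 0) of the summed monocyte and macrophage markers and of Vcam1, Itgad, Itgav, Cd44 and Icam1, by library (red RT, blue wild type, hatched shallow). The markers, Vcam1, Itgad, Itgav and Cd44 are highest in RT1, at 2235, 1399, 507, 408 and 499 RPM, and Icam1 is highest in RT2, at 195 RPM.

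Ratios of partner chains inside a library depend little on the library total, but can still differ between the depth sets. The ratio of Itga4 to Itgb1, each as RPKM + 1, was 0.315, 0.180 and 0.196 in RT1 to RT3, against 0.582, 0.470 and 0.440 in WT1 to WT3 and 0.397 in WT4. All 3 RT libraries lay below all 4 wild-type ones. The log2 ratio differed by -1.07, with means of -2.16 ± 0.43 in RT (SD, n = 3) and -1.10 ± 0.23 in wild type (SD, n = 4). An exact permutation test over 35 splits, made two-sided by doubling the smaller one-sided p, gave p = 0.0571, or 0.229 adjusted over 4 ratios. With the doubling, 0.0571 is the lowest p that 3 against 4 libraries can give. The ratio of Itgal to Itgb2 was 0.825, 0.873 and 0.896 in RT, against 0.846, 0.624, 0.728 and 0.656 in wild type (exact permutation p = 0.114, adjusted p = 0.229). The ratio of Itga6 to Itgb1 differed by -1.75 (log2; exact permutation p = 0.171, adjusted p = 0.229). It was 0.0725, 0.0245 and 0.0192 in RT1 to RT3, against 0.162, 0.317, 0.0530 and 0.0524 in WT1 to WT4. Within wild type it was thus higher in the deep set, and the permutation test has no term for the set. In each set the RT libraries lay below the wild-type ones. That of Itga4 to Itgb7 differed by 0.06 (log2; exact permutation p = 0.971, adjusted p = 0.971).

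**Figure D4:**
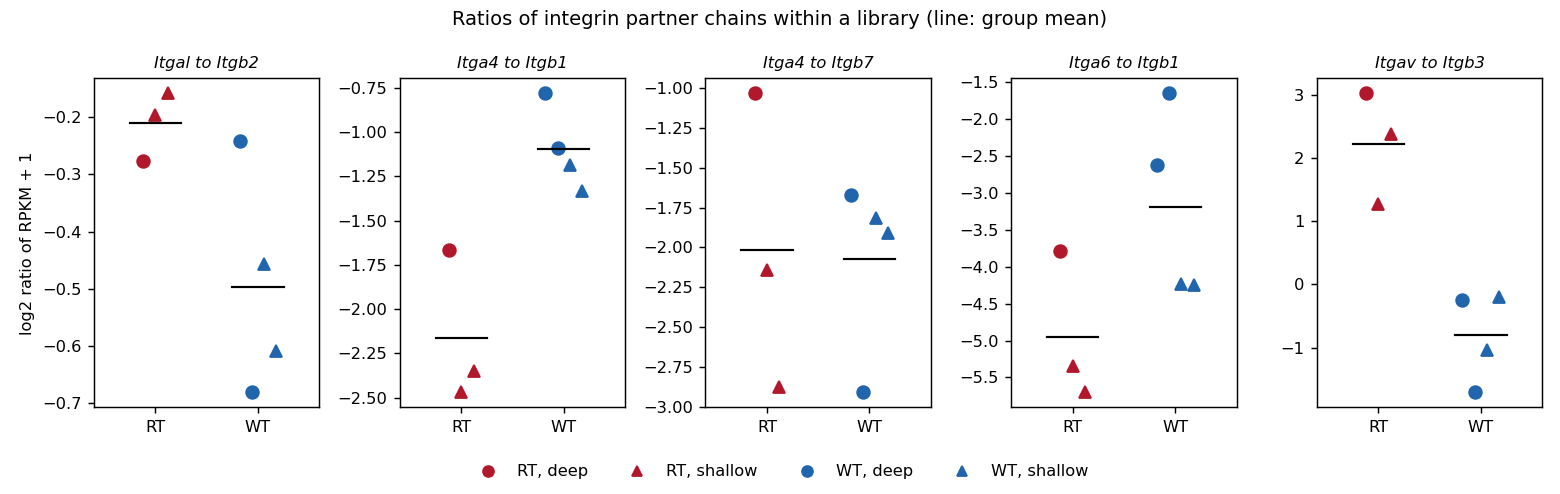
Log2 ratios of RPKM + 1 of integrin partner chains within each library (circles deep, triangles shallow, line at the group mean; the axes differ between panels), RT in red and wild type in blue. The Itga4 to Itgb1 ratios of RT all lie below those of wild type, and the untested Itgav to Itgb3 ratios, which rest on 1 to 3 Itgb3 reads in the shallow libraries, are higher in RT.

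Among the other integrin chains, 17 of 18 listed genes were in the table and 14 were above 0 in some library. Of the 5 with enough reads for the test, 3 rose and 0 fell, where 9.43% of all 5908 genes were called higher and 8.23% lower. The filter of 10 reads sums the shallow libraries of both groups. Itgb8 met it through 6 and 11 reads in RT2 and RT3, with 1 and 2 in WT3 and WT4. Itgb5 met it through 0 and 7 reads in RT2 and RT3, with 2 and 1 in WT3 and WT4. The count of rises is thus in part set by the filter. Itgb8, a partner of alphav that activates latent TGF-beta, rose by 2.97 ± 0.57 (log2, SE) and had 312, 61.7 and 97.8 RPM in RT1 to RT3, against 81.8, 19.2, 9.46 and 18.4 RPM in WT1 to WT4. RT1 was highest, RT3 lay above every wild-type library, and RT2 lay above WT2, WT3 and WT4 but below WT1. Itgb5, another partner of alphav, rose by 2.29 ± 0.27 and had 137, 0 and 62.2 RPM in RT, against 31.2, 23.5, 18.9 and 9.19 RPM in wild type. Itgad, the alpha chain of a leukocyte integrin found on macrophages of the splenic red pulp, was called at 2.32 ± 0.31 and had 507, 41.1 and 44.5 RPM in RT, against 83.3, 97.2, 104 and 110.3 RPM in wild type. Its call rests on RT1, since RT2 and RT3 lay below every wild-type library. Without RT1, Itgb8 was at 2.21, Itgb5 at 0.13 and Itgad at -1.23, none of them called. Itgae and Itgax did not pass, at 0.94 and 0.63.

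Of 25 listed genes that open or close integrins 20 were tested, 0 rose and 7 fell, against 9.43% and 8.23% of all genes. The median log2 fold change was -0.42 over the list and -0.03 over all genes. Rasgrp2, an exchange factor that loads RAP1 with GTP and so activates integrins, fell by 2.48 ± 0.19 (log2, SE; limma voom adjusted p = 0.000522). It had 48.6, 61.7 and 44.5 RPM in RT1 to RT3, against 244, 313, 265 and 221 RPM in WT1 to WT4. Rasgrp1, a RAS exchange factor downstream of the T cell receptor, fell by 2.07 ± 0.20 and had 72.0 to 116 RPM in RT and 218 to 501 RPM in wild type. Rasa3, which encodes a RAP1 and RAS inactivator, fell by 1.12 ± 0.14 and had 178 to 215 RPM in RT and 368 to 500 RPM in wild type. All 3 genes were lower in every RT library than in any wild-type one, as was so for 5.65% of the 5908 genes tested. They were named for their small p, so this separation is no further result. In the shallow libraries alone they also passed, at -2.12, -1.49 and -1.14. Without RT1, with WT1 and WT2 kept, they had those same values and were not called. The genes that fell thus include both an activator and an inactivator of RAP1.

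Of 19 genes of the adhesion complex inside the cell, 14 were tested, 1 rose and 1 fell, close to the 9.43% and 8.23% of all genes called, and the median log2 fold change was -0.06. Actn1, an actin cross-linker, fell by 1.89 ± 0.37 and had 158, 0 and 44.5 RPM in RT, against 416, 719, 331 and 285 RPM in wild type. It passed in the shallow libraries alone, at -4.11, and not without RT1, at -4.22. Actn1 met the read filter through wild type, with 35 and 31 reads in WT3 and WT4, against 0 and 5 in RT2 and RT3. Ptk2, the focal adhesion kinase gene, was called at 1.97 ± 0.40, but had 264 RPM in RT1 and 0 in RT2 and RT3, against 52.7 to 110.3 RPM in wild type. Without RT1 Ptk2 was at -4.41, uncalled, on the other side of 0.

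Of 14 other integrin ligand genes 4 were tested, 3 rose and 0 fell, against 9.43% and 8.23% of all genes. Spp1 met the read filter through RT, with 24 and 22 reads in RT2 and RT3 and 1 and 2 in WT3 and WT4. This count too is thus in part set by the filter. Spp1, which encodes osteopontin, a ligand of alphav integrins and of CD44, had 134, 247 and 196 RPM in RT1 to RT3, against 5.45, 2.55, 9.46 and 18.4 RPM in WT1 to WT4, and rose by 5.09 ± 0.33 (log2, SE; limma voom adjusted p = 0.000522). Spp1 passed in the shallow libraries alone, at 3.62, and with RT1 alone left out it had the same value and was not called. Lamc1, a laminin chain gene, rose by 1.34 ± 0.24 and was at 0.61 without RT1, uncalled. It had 96.5, 10.3 and 71.1 RPM in RT1 to RT3, against 45.4, 31.0, 18.9 and 18.4 RPM in WT1 to WT4. RT2, on 1 read, lay below every wild-type library. Vcam1, the ligand of alpha4 beta1, had 1399 RPM in RT1 but 154 and 178 RPM in RT2 and RT3, against 196 to 369 RPM in wild type. In the fit of all libraries it was called at 2.05 ± 0.49 (limma voom adjusted p = 0.0247), was lost without WT1 at 1.83, and was -1.10 without RT1.

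Of 13 homing receptors and membrane partners 12 were tested, 2 rose and 6 fell, against 9.43% and 8.23% of all genes. Selplg, the P-selectin ligand gene, fell by 1.61 ± 0.18 (log2, SE) and had 130, 144 and 222 RPM in RT, against 350, 470, 492 and 515 RPM in wild type. Rdx, which encodes the membrane linker radixin, fell by 1.17 ± 0.18. The tetraspanin genes Cd81 and Cd82, whose products sit beside integrins in the membrane, rose by 1.94 ± 0.21 and 0.98 ± 0.20. Cd81 had 259, 309 and 240.1 RPM in RT, against 54.1 to 85.1 RPM in wild type. Selplg and Cd81 separated the groups without overlap, as 5.65% of the 5908 genes tested did on the lower side and 5.59% on the higher. Both were named for their small p, so this is no further result. The groups overlapped in Rdx, at 41.1 to 80.0 RPM in RT and 66.2 to 167 RPM in wild type. They also overlapped in Cd82, at 727 to 1440 RPM in RT and 288 to 791 RPM in wild type. Without RT1 the values were -1.44 for Selplg, -0.44 for Rdx, 1.71 for Cd81 and 0.97 for Cd82, none of them called. In the shallow libraries alone Selplg, Cd81 and Cd82 passed, and Rdx did not. These lists were chosen with earlier results of the data known, so their counts describe them and are no separate evidence.

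The genes with the pattern most like a member's were taken by Pearson's r of log2(RPM + 10) over 7 libraries, after subtracting the mean of each library set, among 5908 genes. The libraries share their depth set, and r is a description only. For Itga6 they were Sos1, Dimt1 and Dgka (r of 0.992, 0.991 and 0.989). For Itgav they were Scd2, Csf1 and Lcp2 (r of 0.999, 0.996 and 0.993). For Icam1 they were Serpinb6a, Slamf6 and Nfil3 (r of 0.993, 0.992 and 0.984).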

How the data were processed

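CD4+ splenocytes were sorted by flow cytometry and made into libraries with a TruSeq v2 kit, as the labels' protocols say. RPKM values of 7 libraries, computed by the authors, make up the deposited table. The submitters' processing notes name mm10. The sources used here name no aligner, counter or annotation. Coordinates and exon lengths are those of GENCODE M21, matched by symbol.

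Limma 3.58.1 (R 4.3.3, trended prior variance, genotype only) was run on log2(RPKM + 1) of genes that reached 1 RPKM in 3 or more libraries. Whole reads were recovered from RPKM, gene length and library total. A single length gave whole reads in every library for 13053 genes (tolerance 0.003 reads), and 806 needed separate lengths in the deep and shallow libraries. Of the values under 100 reads, 78.9% to 83.8% were whole within 0.01 reads at GENCODE lengths. The recovered reads were 49.4% to 52.9% of the totals of deep libraries and 88.9% to 92.5% of those of shallow ones, so RPKM runs higher in shallow libraries than RPM does. Reads were tested with limma voom (genotype and library set) over genes with 10 or more reads in the shallow libraries together. Voom weights deep libraries more. P-values are two-sided and Benjamini-Hochberg adjusted over all genes tested. A gene with 0 reads may have up to 0.264 to 0.327 RPM in a deep library and 26.7 to 30.9 RPM in a shallow one (3 reads), and such limits and the exact binomial (Clopper-Pearson) intervals cover counting error only.

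Scripts were tested on simulated data. The members, lists, tests and alternatives were chosen with earlier results of these data known. Members are named whatever their values. From each list, up to 3 genes per direction with the smallest p among those past the threshold are named, with Spp1 in any case, and the 3 genes most like each of the 3 members with the smallest p. Others (Itgae, Itgax) were named after their values were seen. One gene of the homing list is counted in its list but not reported here.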

Additional observations from a re-analysis of the deposited data

How the results depend on the processing

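In the test on log2(RPKM + 1), none of the 10 genes passed under any alternative run. The genes called over the whole table were 5, and 0 with a pseudocount of 0.1, with no filter, in the deep libraries alone or with the label number as a replicate block. They were 27 with quantile normalization, 26 with a library set term, 43 in the shallow libraries alone and 0 to 21 when leaving out 1 library. Itgb2, at 0.11, was at -0.29 with quantile normalization, at -0.0737 with the set term, at -0.0413 and -0.0954 in the deep and shallow libraries alone, and at -0.16 to 0.47 when leaving out 1 library. Cd44 was at -0.25 in the shallow libraries alone, and Itgb7 ran from -1.04 to 0.24 when leaving out 1 library.

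On recovered reads, 1043 genes and 5 of the 9 members tested were called. The counts were 121 and 1 by limma without weights, 492 and 1 without the set term, 183 and 2 in the deep libraries alone, and 336 and 1 in the shallow ones. They ran from 0 to 1297 genes and from 0 to 6 members when leaving out 1 library, with 0 and 0 without RT1, 3 members without WT3 and 600 genes without RT3. Without the set term Icam1 was the member still called, and by limma without weights Itgav was. Cd44 was lost with median-of-ratios size factors, at 0.92. Itgal was at -0.00881 with the replicate block, and ran from -0.0127 to 0.29 when leaving out 1 library. Cd44 was at -0.29 in the shallow libraries alone and ran from -0.28 to 1.06 when leaving out 1 library. The replicate block with the set term gave 1091 genes and 5 members, with Itgb7 lost and Itga4 gained. Same-numbered libraries correlated at 0.43, -0.18 and 0.18 in their deviations from group means, so the numbers were not taken as pairs. Genes whose genotype difference differed between the sets fell from 33 to 0 with the looser filter (1319 at an unadjusted p under 0.05). The Itga4 to Itgb7 log2 ratio ran from -0.43 to 0.49 when leaving out 1 library. The cause of these shifts was not tested.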

Other observations

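Thy1, a T cell surface gene, had 46.3, 483 and 293 RPM in RT1 to RT3, against 404 to 533 RPM in wild type. Among the other T cell markers, Cd3e, Cd3g and Cd28 lay within the wild-type range in RT1, and Cd4, Cd3d and Lck below it. Lck had 626 RPM in RT1, against 787 to 927 RPM in wild type, and Cd3d 247 RPM, against 249 to 341 RPM. Cd4 had 943 RPM in RT1, against 986 to 1164 RPM in wild type, Cd3e 574 RPM, against 303 to 596 RPM, Cd3g 351 RPM, against 276 to 515 RPM, and Cd28 342 RPM, against 193 to 391 RPM. In RT2 and RT3, Cd4, Cd3d, Cd3e, Cd3g and Lck lay above every wild-type library, and Cd28 lay within the wild-type range. Cd4 had 1841 and 2018 RPM there, Cd3d 1049 and 738 RPM, and Cd3e 823 and 774 RPM. Cd3g had 1420 and 1014 RPM and Lck 1512 and 1431 RPM in RT2 and RT3. Of the macrophage markers, Csf1r had 1243 RPM in RT1 and 72.0 to 386 RPM in the other libraries, and Adgre1 220.4 RPM in RT1 and at most 101.1 RPM elsewhere. Lyz2 was about as high in RT1, at 564 RPM, as in WT3, at 568 RPM, and Cd14 had 52.2 RPM in RT1 and 53.3 RPM in RT3. These genes were chosen after their values were seen.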
